A study of Mus musculus with 12 samples.

Results

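The genes examined here encode the secreted products of the lung's alveolar and airway epithelium and the proteins that make, pack and process surfactant. They were chosen by symbol, as 10 genes: Sftpa1, Sftpb, Sftpc, Sftpd, Scgb1a1, Lyz2, Abca3, Lamp3, Napsa and Lpcat1. Every probe set annotated to 1 of these symbols alone was read, which gave 18 probe sets for 9 of the 10 genes among 45037 probe sets and 18193 genes in all. Lamp3, a lysosome-associated membrane protein of lamellar bodies, had no probe set of its own, since the 1 that lists it also lists another gene. Its level was not analysed here.

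RNA came from 4 mouse lung adenocarcinoma cell lines, KC1, KC2, KC3 and KC4, on 12 one-colour Affymetrix arrays, 3 per line. All 4 lines carry the same genotype, K-rasLA1/+; Cdkn1a-/-, on a background labelled 127s, so each has 1 allele that is activated by somatic recombination to mutant K-ras and lacks the cell-cycle inhibitor p21. KC1, KC2 and KC3 are labelled highly metastatic and KC4 poorly metastatic, so metastatic class and line cannot be told apart for KC4. Per the labels the lines go back to 6 tumours of 4 mice and were grown in RPMI 1640 with 10% fetal bovine serum, and which mouse gave which line is not stated. The 3 arrays of a line are labelled biological replicates, and p-values measure the spread between them, not between independent lines.

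Surfactant is the film of phospholipid and protein that lowers surface tension in the alveolus. Alveolar type II cells make its lipids, load them into lamellar bodies, and secrete them with the small hydrophobic proteins SP-B and SP-C and the larger collectins SP-A and SP-D, which also bind microbes. Club cells of the small airways secrete the uteroglobin Scgb1a1. Type II cells are one origin of K-ras-driven lung adenocarcinoma, and the transcription factor NKX2-1 drives many of these genes in normal lung.

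Sequences just upstream of the genes show how unlike the promoters of this group are. RefSeq's table for GRCm38.p6 held windows for 6 of the 10 genes, Sftpa1, Sftpb, Lyz2, Abca3, Lamp3 and Lpcat1. The 250 bases before the start of Sftpb and Sftpa1 are shown because they hold letters found in NKX2-1 binding sites, and those of Lpcat1 because it was one of the members that differed between lines. In the first 2, capitals mark CTCAAG, a core of NKX2-1 sites, and TATAA, the TATA box letters, searched on both strands; in Lpcat1 they mark CG pairs.
Sftpb, chr6:72304360-72304609, plus strand: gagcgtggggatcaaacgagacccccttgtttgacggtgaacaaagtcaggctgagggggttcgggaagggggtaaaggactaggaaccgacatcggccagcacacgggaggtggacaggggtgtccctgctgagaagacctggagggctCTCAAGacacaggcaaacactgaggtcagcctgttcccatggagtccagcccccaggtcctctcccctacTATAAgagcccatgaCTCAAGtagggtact
Sftpa1, chr14:41131538-41131787, plus strand: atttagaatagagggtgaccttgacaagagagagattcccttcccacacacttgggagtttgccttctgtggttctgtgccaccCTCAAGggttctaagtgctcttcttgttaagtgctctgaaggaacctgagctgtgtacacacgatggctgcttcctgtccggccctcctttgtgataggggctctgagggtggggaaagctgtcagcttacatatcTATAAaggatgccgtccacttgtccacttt
Lpcat1, chr13:73466981-73467230, plus strand: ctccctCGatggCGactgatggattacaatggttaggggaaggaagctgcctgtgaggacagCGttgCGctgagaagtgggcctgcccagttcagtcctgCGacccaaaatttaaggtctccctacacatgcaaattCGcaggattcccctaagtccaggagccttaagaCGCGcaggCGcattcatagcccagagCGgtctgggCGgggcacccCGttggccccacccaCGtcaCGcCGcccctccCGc
Sftpb held CTCAAG at 2 places, beginning 100 and 15 bases before the start, and Sftpa1 at 1, beginning 166 bases before it. In both, TATAA began 30 bases before the start. Neither motif was found in the windows of Lpcat1, Abca3, Lyz2 or Lamp3. Over all 32851 windows of this length, 13.3% held CTCAAG and 22.8% TATAA. The motifs did not overlap each other in these windows. Lpcat1 had 16 CG pairs and Abca3 21, ratios of observed to expected CG of 0.70 and 0.74, against 7 and 0.33 in Sftpb, 3 and 0.19 in Sftpa1, 1 and 0.095 in Lyz2 and 0 in Lamp3. The median ratio over all windows was 0.37. A match is a description of letters and not a measured site.

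Signals are on the linear scale of the deposited table, where the median probe set of an array lay between 94.5 and 128. A signal of 16 or less was set to 16, or 4.00 on the log2 scale, and is called the floor. Probe sets differ in how brightly they report a transcript, so levels were compared between lines within a probe set only. No detection calls were used, so a low signal is not shown to be background, nor to be a transcript. In RNA from whole cultures, fewer cells with a transcript and less of it per cell cannot be told apart. A difference was called at a limma adjusted p under 0.05 (Benjamini-Hochberg over all probe sets) with a log2 difference of at least 1.

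Of the 18 probe sets, 4 differed over the 4 lines by the moderated F test of limma, with a range of line means of at least 1 on the log2 scale. These were the single probe set of Sftpd and 3 of the 5 of Lpcat1. Over all probe sets, 16.1% differed in this way. The median range of line means was 0.56 in the members and 0.61 over all probe sets. Without the size requirement 6 of the 18 had an adjusted p under 0.05, the others being 2 of Abca3. The remaining 12 belonged to Sftpa1, Sftpb, Sftpc, Scgb1a1, Lyz2, Napsa, Abca3 and Lpcat1.

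**Figure D1:**
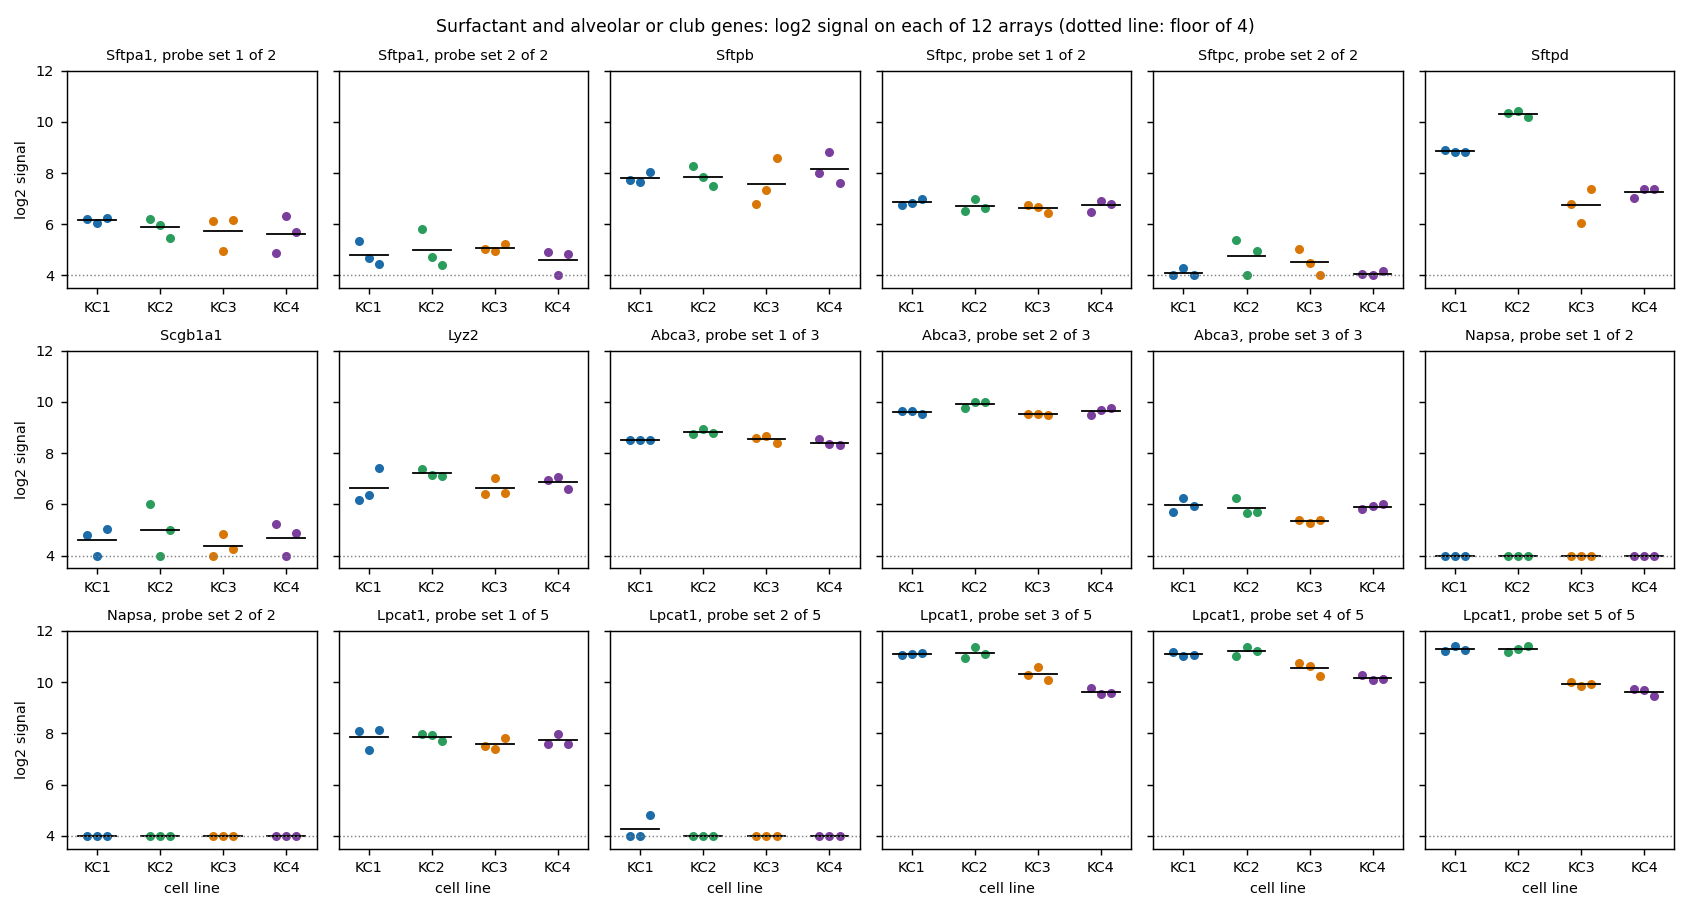
Log2 signal (vertical axis) of each of the 18 probe sets on each array, by cell line (horizontal axis). Points are arrays, short bars are line means, and the dotted line is the floor of 4.00. Sftpd and the last 3 probe sets of Lpcat1 differ over the lines, though some lines overlap on each, while both of Napsa stay at the floor on all 12 arrays.

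Among the surfactant proteins, Sftpd was the one that differed between lines. It encodes SP-D, a collectin of the alveolar lining. Its signal was 1305, 1358 and 1178 on the KC2 arrays and 484, 456 and 456 on those of KC1. KC4 gave 132, 168 and 165, and KC3 gave 112, 66.4 and 167. The KC2 arrays lay above all of KC1, and the KC1 arrays above all of KC3 and KC4, while the ranges of KC3 and KC4 overlapped.

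On the log2 scale the Sftpd means were 10.32 ± 0.11 in KC2, 8.86 ± 0.05 in KC1, 7.27 ± 0.19 in KC4 and 6.75 ± 0.67 in KC3 (SD, n = 3 each; limma F adjusted p = 3.06e-05). KC2 exceeded KC1 by 2.75-fold, the difference KC1 minus KC2 being -1.46 (SE 0.28, limma adjusted p = 0.00591). KC1 exceeded KC4 by 3.02-fold (log2 difference 1.59, SE 0.28, limma adjusted p = 0.00358). KC2 exceeded KC4 by 8.29-fold and KC3 by 11.9-fold, with limma adjusted p = 4.23e-05 and 1.36e-05. The lowest neighbours in this order, KC4 and KC3, differed by -0.52 (KC3 minus KC4, 95% interval -1.15 to 0.11, limma adjusted p = 0.234), so their order is not settled.

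The other surfactant proteins gave no call between any pair of lines. Sftpb, which encodes SP-B, needed for the surfactant film to form, gave signals of 256, 457 and 195 on the KC4 arrays and 112, 162 and 383 on those of KC3. The KC2 arrays gave 312, 227 and 178 and the KC1 arrays 211, 201 and 264. All 4 lines overlapped, and arrays of KC3 alone spanned the lowest signal and one above every array of KC1 and KC2. Its SD within lines, pooled, came to 0.60 (log2), and the 95% interval for KC3 minus KC4 ran from -1.63 to 0.49.

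Sftpc encodes the hydrophobic peptide SP-C, a product of type II cells alone in the adult lung. Its brighter probe set gave 90.4, 120 and 111 on the KC4 arrays, 108, 103 and 87.6 on those of KC3, 90.6, 125 and 98.9 on those of KC2, and 109, 115 and 126 on those of KC1. The KC1 arrays lay just above those of KC3, and every other pair of lines overlapped. KC1 minus KC3, the widest gap, was 0.23 (95% interval -0.11 to 0.57, limma adjusted p = 0.345). The second probe set, whose ending x_at means that it can pick up related transcripts, ran from 6.69 to 41.3 and lay at the floor on 5 of 12 arrays. Its range of line means was 0.70 (limma F adjusted p = 0.346) and rose to 1.09 with KC2 replicate 2 left out (limma F adjusted p = 0.0458), which made it a call in that fit.

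Sftpa1 encodes SP-A, the other collectin. Its probe sets ran from 29.2 to 80.9 and from 7.91 to 55.9 over the 12 arrays, with F adjusted p of 0.747 and 0.783 in limma. All lines overlapped on the brighter one, and on the other the KC3 arrays lay just above those of KC4 while the other pairs overlapped. The 2 probe sets correlated with r = 0.03 over the 12 arrays on the log2 scale, given as a description since the arrays come from 4 lines. Values that low leave room for change: the 95% interval of KC1 minus KC4 on the brighter one ran from -0.42 to 1.51.

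The club cell and lysozyme products gave no call between any pair of lines. Scgb1a1, the main secretory protein of club cells, ran from 5.3 to 65.5 and lay at the floor on 4 of 12 arrays. Its highest and lowest signals within KC2 alone were 65.5 and 10.9, and its pooled SD of 0.69 was the largest of the 18 probe sets. Lyz2, a lysozyme of type II cells and macrophages, gave 169, 143 and 140 on the KC2 arrays and 72.1, 83.3 and 170 on those of KC1. The KC4 arrays gave 123, 133 and 97.4 and the KC3 arrays 85, 131 and 86.1. The KC2 arrays lay above all arrays of KC3 and KC4, by log2 differences of 0.61 and 0.36 on average, and neither passed the test (limma adjusted p = 0.207 and 0.503). KC1 spanned the values of all the others.

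Because Lyz2 is also a macrophage gene, 25 macrophage and leukocyte markers were read beside it. Of these, 1 differed over the lines, the mannose receptor gene Mrc1, highest in KC1 (9.79 ± 0.04 against 8.21 to 8.61), whereas 18.6% of all genes did. Among the others, named after their values were seen, C1qa, C1qc and Siglecf lay at the floor on all arrays, the pan-leukocyte marker Ptprc ran from 34.4 to 72.1, and signals were 159 to 326 for Csf1r, 154 to 335 for Cd68, 85.9 to 469 for Laptm5 and 574 to 980 for Cd14. Summed over the list, the signal per array was 2368 to 2819 in KC3, 2812 to 3029 in KC4, 2964 to 3020 in KC2 and 2942 to 3493 in KC1. The part of such cells in the Lyz2 signal was not tested.

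Lpcat1 was the other member gene that differed over the lines. Its enzyme re-acylates lysophosphatidylcholine and makes the saturated phosphatidylcholine of surfactant, and other cell types use it in membrane remodelling. On probe set 1451359_at the signal was 2386, 2751 and 2431 in KC1 and 2338, 2523 and 2714 in KC2. KC3 gave 1025, 921 and 964 and KC4 843, 818 and 709. KC1 and KC2 overlapped, both lay above all arrays of KC3, and all KC3 arrays lay above those of KC4.

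On this probe set KC1 and KC2 exceeded KC4 by 3.2-fold each, with log2 differences of 1.68 and 1.68 (SE 0.087, limma adjusted p = 3.01e-06 and 1.44e-06). They exceeded KC3 by 2.6-fold each (log2 differences 1.38 and 1.38, limma adjusted p = 6.49e-06 and 4e-06). KC3 minus KC4 was 0.30 (95% interval 0.10 to 0.50, limma adjusted p = 0.0357), under the size needed for a call. KC1 minus KC2 had a 95% interval of -0.20 to 0.20, or a ratio from 0.871 to 1.15.

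A further probe set of Lpcat1, 1424459_at, followed the same order, and the third, 1424460_s_at, spread the lines less. On the former the KC4 arrays gave 861, 736 and 758, the KC3 arrays 1232, 1546 and 1076, the KC2 arrays 1982, 2624 and 2196, and the KC1 arrays 2142, 2216 and 2260. KC1 and KC2 overlapped, and both lay above KC3, which lay above KC4. KC1 and KC2 exceeded KC4 by 2.82-fold and 2.88-fold, both called, and KC3 was the next (0.70 above KC4, SE 0.14, limma adjusted p = 0.00597). The latter, whose ending s_at marks probes shared with other transcripts, gave 1256, 1091 and 1123 on the KC4 arrays, 1709, 1581 and 1217 on those of KC3, 2095, 2642 and 2344 on those of KC2, and 2299, 2086 and 2133 on those of KC1. KC3 overlapped KC4 there. On it KC2 minus KC4 was 1.03 (SE 0.13, limma adjusted p = 0.000356), the one call, and it fell to 0.94 without KC2 replicate 2 and to 0.98 without KC4 replicate 2. These 3 probe sets come from 1 source sequence in the platform annotation and correlated with r of 0.93, 0.94 and 0.97 over the 12 arrays.

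The other 2 Lpcat1 probe sets did not follow them. Probe set 1420293_at ran from 164 to 281 with all lines overlapping, and its interval for KC2 minus KC4 was -0.36 to 0.65. The difference of 1.68 on the leading probe set lies outside that interval. Probe set 1420294_at lay at the floor on 11 of 12 arrays, the other being 27.9 on a KC1 array. Which part of the transcript each covers was not analysed here. The Lpcat1 difference was seen only on the probe sets from 1 source sequence.

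**Figure D2:**
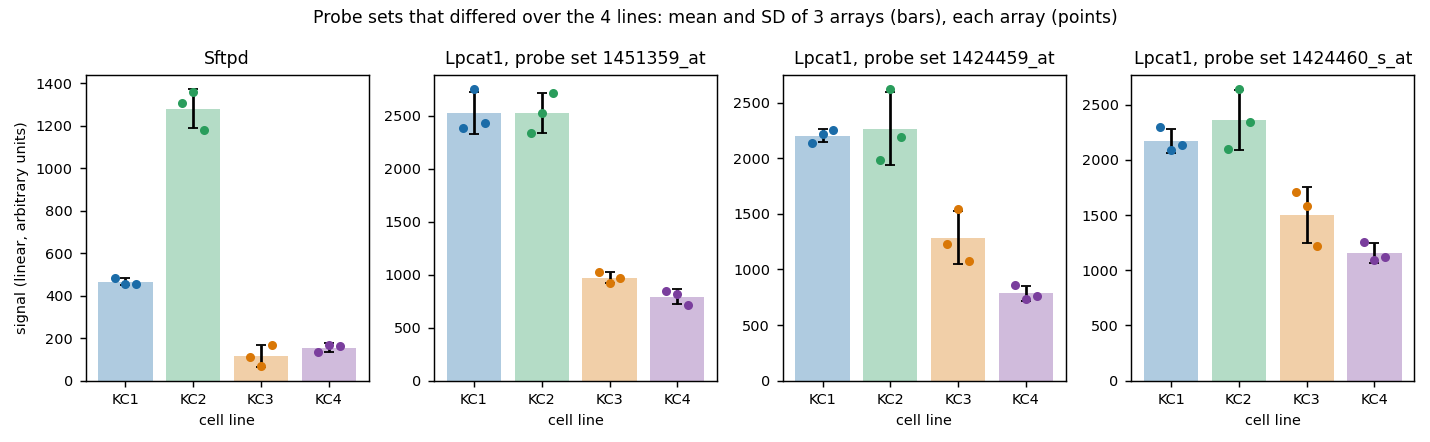
Linear signal (vertical axis, arbitrary units, from 0) of the 4 probe sets that differed over the lines, by cell line (horizontal axis); bars are means of 3 arrays, error bars SD, points arrays. Sftpd is highest in KC2 (1280 ± 92) and next in KC1 (465 ± 15.8), and Lpcat1 is about equal in KC1 and KC2 and lower in KC3 and KC4.

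Abca3, the transporter that loads phospholipid into lamellar bodies, was read on 3 probe sets and varied little. The brightest gave 874, 1016 and 1010 on the KC2 arrays, 800, 798 and 741 on those of KC1, 711, 826 and 862 on those of KC4, and 741, 733 and 729 on those of KC3. The KC2 arrays lay above those of every other line. KC2 minus KC3 was 0.39 (SE 0.08, limma adjusted p = 0.00515) and KC2 minus KC4 0.28 (limma adjusted p = 0.0327), both past the p threshold and under the size needed for a call. Probe set 1425496_at placed KC2 highest as well, at 429, 498 and 448 against 322 to 406 on the 9 other arrays, and KC2 minus KC4 was 0.42 (SE 0.083, limma adjusted p = 0.00447).

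On the third and dimmest Abca3 probe set KC3 was the lowest line, at 42, 38.3 and 41.9 against 50.4 to 76.7 elsewhere. The F adjusted p of this probe set in limma was 0.0547. KC1 minus KC3 was 0.62 and KC3 minus KC4 -0.56 (limma adjusted p = 0.029 and 0.045). Both passed the p threshold and lay under the size needed for a call. The KC1, KC2 and KC4 arrays overlapped there, so it did not follow the other 2 (r of 0.25 and -0.14 over the 12 arrays, against 0.59 between those).

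Napsa, the aspartic protease that cleaves the precursors of SP-B and SP-C, was at the floor throughout, on 12 of 12 arrays of both its probe sets. The deposited signals ran from 3.21 to 15.4 on one and from 1.49 to 8.12 on the other. No fold change can be given.

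The design's main comparison sets the highly metastatic lines against KC4. Of the 18 probe sets 3 were called when the average of the highly metastatic lines was set against KC4, all higher, Sftpd once and Lpcat1 on 2 probe sets. Over all probe sets 2.49% were called higher and 2.1% lower. Sftpd was 1.37 higher (SE 0.23, limma adjusted p = 0.00194), although KC3 was not above KC4, and without KC2 the difference was 0.54 (limma adjusted p = 0.246). Lpcat1 was 1.24 (SE 0.12, limma adjusted p = 6.71e-05) and 1.22 higher (SE 0.071, limma adjusted p = 4.03e-06), and on 1451359_at the difference was 0.99 without KC1 or without KC2, under the size needed. With the line as a random block none of the 3 was called (limma adjusted p = 0.801 for Sftpd, 0.0661 and 0.222 for Lpcat1). The median difference was 0.07 in the members against 0 over all probe sets.

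In single pairs the calls lay on the side of KC1 and KC2. KC2 minus KC4 called 4 probe sets, all higher in KC2, where 4.26% of all probe sets were higher and 3.73% lower. KC1 minus KC4 called 3, all higher in KC1 (3.09% higher and 1.66% lower over all). KC1 minus KC3 called 2, both higher in KC1 (4.78% and 2.21%), and KC2 minus KC3 called 2, both higher in KC2 (5.44% and 3.97%). KC1 minus KC2 called Sftpd alone, lower in KC1 (2.49% higher and 1.55% lower). KC3 minus KC4 called 0 by limma (2.74% higher and 3.96% lower over all). In that pair 4 had an unadjusted p under 0.05 and 3 a limma adjusted p under 0.05, short of the size needed. On the brightest probe set of each gene, which leaves 9 members, 1 was called in KC1 minus KC2 (4.78% of genes in either direction), 1 in KC1 minus KC3 (8.01%), 1 in KC1 minus KC4 (5.36%), 1 in KC2 minus KC3 (10.7%) and 2 in KC2 minus KC4 (9.31%). In the class contrast it was 1 (5.36%), and in KC3 minus KC4 it was 0 (7.92%), where 1 had an unadjusted p under 0.05 in limma. Pairs that share a line share its arrays, so these counts are not independent of each other.

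**Figure D3:**
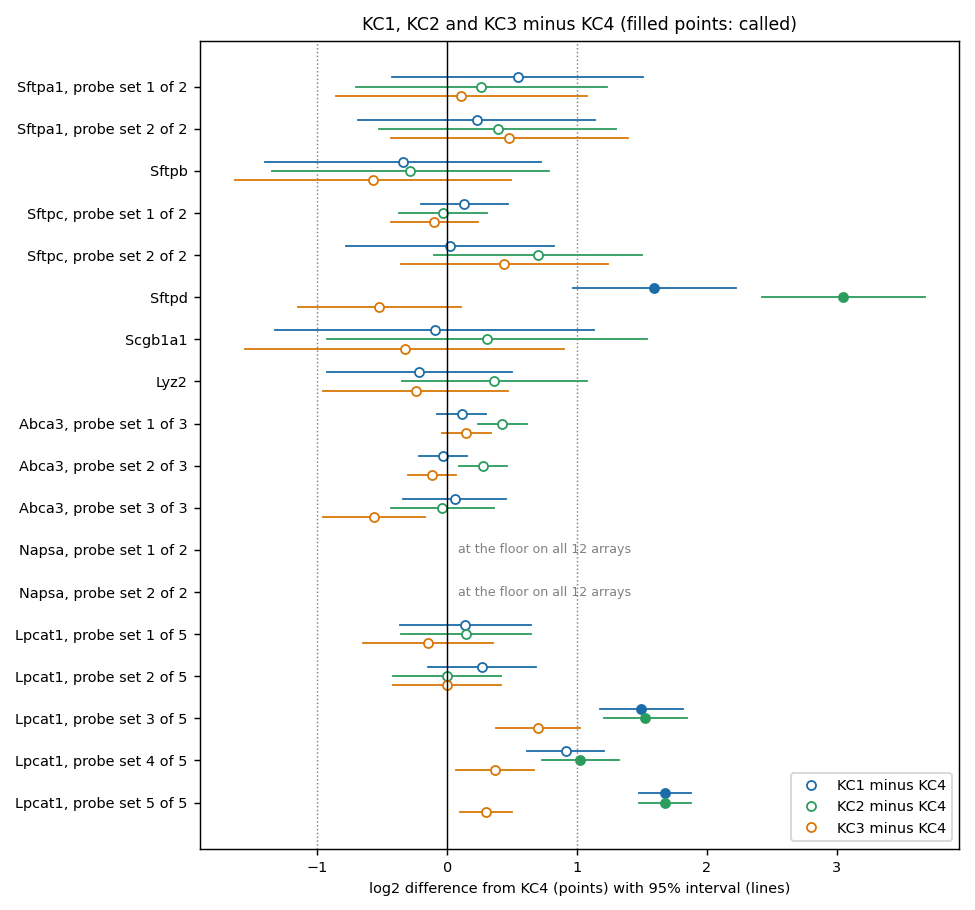
Log2 difference (horizontal axis) of KC1, KC2 and KC3 from KC4 for each probe set (vertical axis), with 95% intervals from limma. Filled points were called, dotted lines mark a log2 difference of 1 in either direction. Filled points occur for Sftpd and Lpcat1 in KC1 and KC2, and for no probe set in KC3.

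Control probe sets for 18S rRNA differed in KC4, and so did some cell type markers. The array's 5-prime probe set for 18S rRNA had a log2 mean of 11.65 in KC4 against 8.69 to 9.23 in the other lines, a difference of -2.75, and its other probe sets for that RNA differed by -0.66 and -0.84, while the Actb and Gapdh controls differed by -0.01 to 0.18. Of 6 measured basal cell markers 3 differed, where 18.6% of all genes did, and they did not share a direction. The keratin Krt14 was highest in KC4 (12.24 ± 0.11, against 8.07 ± 0.14 in KC3; it was at the floor on all KC2 arrays and 1 of KC1, so those differences are lower bounds). Krt5 was highest in KC2 (8.20 ± 0.11 against 6.83 to 6.89), and Ngfr was lowest in KC4 (4.49 ± 0.32 against 4.93 to 6.29), both named because they complete the 3. Krt15 lay at the floor on all arrays, and the basal factor Trp63 ran from 34.4 to 65.5 without passing the test. The list's summed signal per array was 4973 to 5709 in KC4 against 434 to 960 elsewhere, and Krt14 alone reached 5228. Their part in the KC4 differences of Sftpd and Lpcat1 was not tested. Of 8 epithelial markers 3 differed over the lines, each with KC4 lowest: the adhesion molecule Epcam (12.63 ± 0.08 against 13.24 to 13.74) and the claudins Cldn7 (12.19 ± 0.03 against 13.13 to 13.21) and Cldn4 (10.31 ± 0.03 against 11.65 to 12.01). The class contrast was 0.89, 0.98 and 1.54, of which Cldn4 was called. The other 5, Krt7, Krt8, Krt18, Krt19 and Cdh1, had ranges of line means of 0.16 to 0.48. Across the 8, the lowest signal on any array was 1234.

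NKX2-1, the lineage factor upstream of many of these genes in normal lung, had a signal of 5.27 to 55.6 over the 12 arrays, under the median of every array. Its means of 4.18 to 5.41 on the log2 scale put KC4 highest and KC1 lowest. With 2 KC1 arrays at the floor, that difference is a lower bound. It counted as differing, barely past the p threshold (range of line means 1.23, limma F adjusted p = 0.0499). Of 26 measured lung lineage factors and regulators 12 differed over the lines, this one included, against 18.6% of all genes. Cebpa, a factor that promotes type II cell maturation, set KC4 apart, at 4.98 ± 1.03 against 7.38 ± 0.35 in KC2, 8.06 ± 0.03 in KC3 and 9.46 ± 0.11 in KC1 (3.32 higher in the class contrast, SE 0.35, limma adjusted p = 0.000141; 1 KC4 array at the floor, so a lower bound). The order of Cebpa over lines was not that of Sftpd or Lpcat1, since KC2 was the lowest of the highly metastatic lines.

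A list of lipid synthesis and lipid transfer genes, drawn up for surfactant, held 26 measured genes. Of these 14 differed over the lines, where 18.6% of all genes did, a share not matched for brightness here or in the other lists. In the class contrast 1 was higher and 1 lower (backgrounds 2.85% and 2.51% of genes). Chka, a choline kinase at the first step of phosphatidylcholine synthesis, was higher in each highly metastatic line, at 11.66 ± 0.10, 12.74 ± 0.08 and 12.64 ± 0.09 against 10.39 ± 0.04 in KC4 (1.96, SE 0.055, limma adjusted p = 5.11e-08). The gene called lower was Lpcat3, named because it was the only one: another lysophosphatidylcholine acyltransferase, which prefers polyunsaturated chains, with 10.72 ± 0.08, 11.03 ± 0.04 and 10.52 ± 0.07 against 11.88 ± 0.13 (-1.12, SE 0.056, limma adjusted p = 1.6e-06). In KC3 minus KC4, 7 of the list were lower and 1 higher (backgrounds 4.45% and 3.46%). The widest of the 7 were the phospholipase Pla2g4a (-1.47), Lpcat3 (-1.36), the lipogenic factor Srebf1 (-1.28) and Acsl4 (-1.25). The rest were the desaturases Scd1 (-1.15) and Scd2 (-1.09) and the cholinephosphotransferase Chpt1 (-1.06). Chka was the one higher.

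Of 27 measured genes of lamellar body trafficking, processing and turnover 7 differed over the lines, 25.9% against 18.6% of all genes. Adgrf5, a receptor on type II cells that restrains surfactant secretion, had the widest range, with 12.96 ± 0.08 in KC4, 12.30 ± 0.14 in KC2, 11.48 ± 0.05 in KC1 and 9.23 ± 0.39 in KC3. Csf2ra, a chain of the GM-CSF receptor, was at 4.23 ± 0.40 in KC2, with 2 of its arrays at the floor, against 7.16 to 7.51 in the others. Rab38, a small GTPase of lysosome-related organelles, was lowest in KC3 (8.54 ± 0.09 against 10.55 to 11.06). The class contrast called Adgrf5 lower (-1.95) and the ubiquitin ligase Nedd4l higher (1.15), the latter named because it was called.

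Among 20 other alveolar type II markers 8 differed, or 40%, where 18.6% of all genes did. The membrane mucin Muc1 set KC4 apart (12.33 ± 0.05, 12.47 ± 0.22 and 11.39 ± 0.14 against 10.19 ± 0.09). Of 21 alveolar type I markers 7 differed, or 33.3%. The widest ranges were in the water channel Aqp5 (7.76 ± 0.28 in KC1 to 10.49 ± 0.03 in KC4), the sodium channel Scnn1a (6.95 ± 0.29 in KC4 to 9.35 ± 0.20 in KC2) and the channel protein Clic3 (9.21 ± 0.34 in KC1 to 11.22 ± 0.10 in KC4). Of 20 other club cell markers 4 differed (20% against 18.6% of all genes), and the aldehyde dehydrogenase Aldh1a1 set KC4 apart as higher (8.80 ± 0.31 against 7.40 to 7.57). Nupr1 and Gabrp, named because they complete the 4 with Scgb3a2, given below, were highest in KC3. Nupr1 had 11.97 ± 0.25 there, 10.95 ± 0.17 in KC4, 10.42 ± 0.15 in KC1 and 6.98 ± 0.42 in KC2. Gabrp had 9.25 ± 0.08 in KC3 against 7.58 to 8.07.

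**Figure D4:**
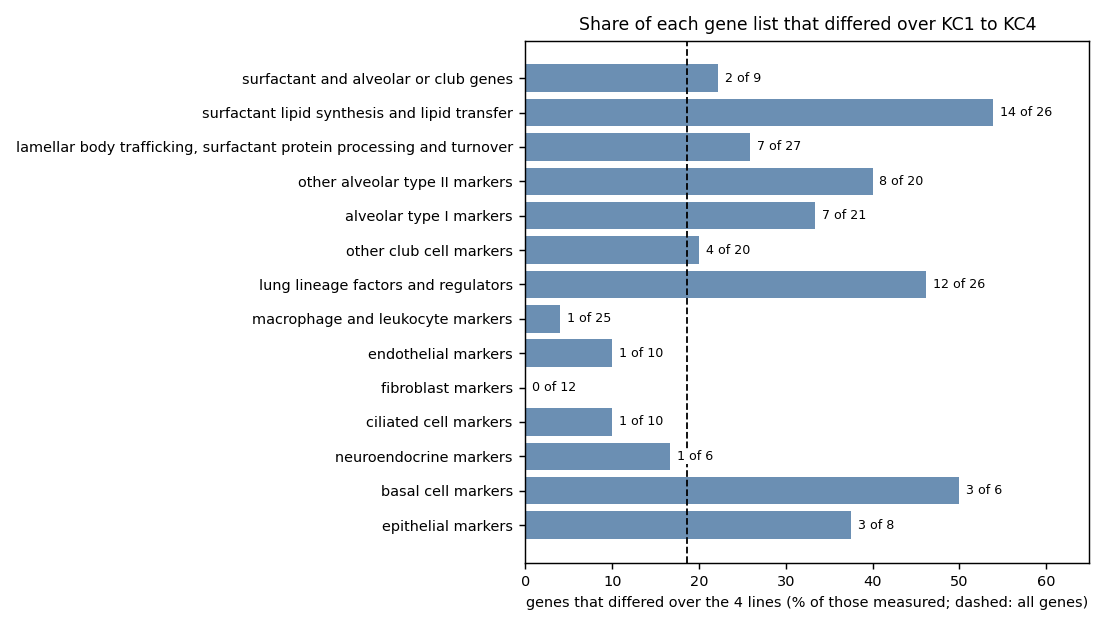
Share of measured genes in each list that differed over the 4 lines (horizontal axis, percent; lists on the vertical axis; counts beside the bars), on the brightest probe set of each gene. The dashed line is the share over all genes, 18.6%; the surfactant and alveolar or club genes are at 2 of 9.

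In the lists of other cell types, 1 of 10 endothelial markers differed, Egfl7 (8.78 ± 0.08 in KC3 and 8.56 ± 0.05 in KC2 against 7.71 to 7.86). Of 10 ciliated cell markers 1 differed, Tppp3 (6.15 ± 0.38 in KC4 against 4.48 to 5.32), and of 6 neuroendocrine markers 1 did, the factor Insm1 (9.31 ± 0.04 in KC1 against 6.72 to 7.24). Of 12 fibroblast markers 0 differed by limma, and 1 had an unadjusted F p under 0.05. Over all genes 18.6% differed.

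The genes most like Sftpd over the 12 arrays, by Pearson correlation of log2 signal among 18193 genes, were Clca3a1 (r = 0.99), Ephx2 (r = 0.99) and Wdr90 (r = 0.99). Clca3a1, a chloride channel regulator, averaged 11.66 ± 0.06 in KC2 and 9.09 ± 0.10 in KC1 against 5.75 ± 0.14 in KC4 and 4.98 ± 0.64 in KC3, on a probe set that can pick up related transcripts. Ephx2, an epoxide hydrolase, averaged 8.97 ± 0.16, 7.80 ± 0.26, 6.38 ± 0.16 and 5.75 ± 0.80 in the same order. The arrays come from 4 lines, so such correlations rest on 4 levels. Wdr90 spanned less, from 8.24 ± 0.18 in KC3 to 9.27 ± 0.06 in KC2. Lpcat1 did not reach the range of 2 set for this search.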

How the data were processed

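Total RNA of 4 cell lines, 3 replicates each, was labelled with biotin by the Affymetrix protocol, per the labels' protocols. The deposited values are linear signal intensity per probe set; the program that made them is not named in the sources used here. The mean after trimming 2% at each end was 500.002 to 500.003 on every array, so arrays appear scaled to one target, and a change in total RNA per cell would not be seen. From 45101 probe sets 64 controls were dropped. Signals were floored at 16 and log2 values taken; 15.3% to 20.0% of probe sets per array lay at the floor. Precision is limited by 3 arrays per line.

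Symbols were taken from GEO's platform table, where 34945 probe sets list 1 symbol, 932 several and 9160 are not listed. Of the first, 34741 matched RefSeq's gene table (GRCm38.p6), which changed 0 symbols. Differences were fitted with limma 3.58.1 in R 4.3.3 (lmFit, eBayes, 1 coefficient per line, all 12 arrays, 45037 probe sets) and checked on simulated data. Other lists used each gene's brightest probe set. Members and lists were chosen with earlier results of these data known. Named genes were all member probe sets; per other list up to 4 genes called between KC4 and each other line, or else up to 3 with the widest range, and the 3 genes most correlated with a member of range at least 2. Alternatives covered the replicate block, each array left out, probe set choice, dim probe sets, 2 other normalizations, a floor of 64, a pseudocount of 16, another prior, a larger minimum difference and the treatment of the line. Figures used matplotlib 3.10.9.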

Additional observations from a re-analysis of the deposited data

How the results depend on the processing

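Counts are of member probe sets called. Over the 12 fits that leave out an array, the count differing over the lines ran from 3 to 4, that of KC1 minus KC2 from 1 to 2 and that of KC2 minus KC4 from 3 to 4. The other counts did not change. The second call in KC1 minus KC2 came without KC2 replicate 2, on the x_at probe set of Sftpc (-1.07, limma adjusted p = 0.0371). With a log2 difference of at least 2 demanded, 1 probe set differed over the lines, 0 were called in the class contrast, 0 in KC1 minus KC2 and KC1 minus KC4, and 1 each in KC1 minus KC3, KC2 minus KC3 and KC2 minus KC4. With the brightest probe set per gene alone, which tests 9 member probe sets, the counts were 2 over the lines, 1 in the class contrast, 1 in KC1 minus KC3, KC1 minus KC4 and KC2 minus KC3, and 2 in KC2 minus KC4. The class contrast called 0 with the line as a random block, 1 with 2 classes and the line ignored, and 1 without KC2. Same-numbered arrays did not deviate together (correlations of -0.12 to 0.088 over 18 pairs, and 2 of 12 arrays correlated best with their own number), so the numbers were not taken as pairs. With the replicate block the count over the lines was 4 and that of the class contrast 3, as without it, and the pairing changed no other count of calls. Each array centred on its median took Lpcat1 probe set 1424460_s_at to a range of 0.96, under the size needed. The log2 differences of Napsa, at the floor in the fit reported, ran from -0.19 to 0.22 over its alternatives, with no call. No alternative reversed a call. A floor hides change under a signal of 16.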

Other observations

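Markers of alveolar and club cells outside the gene group are given as values, chosen after their values were seen. The 8 other type II markers that differed did not share an order of lines. Cldn18, a tight junction protein of lung alveolar and gastric epithelium, had log2 means of 11.48 ± 0.06 in KC1 and 11.75 ± 0.05 in KC2 against 7.13 ± 0.23 in KC3 and 7.28 ± 0.11 in KC4 (SD, n = 3 each; limma F adjusted p = 7.81e-09). Cxcl15, a chemokine of lung epithelium, was at 7.36 ± 0.13 in KC2 against 5.24 ± 0.31, 5.26 ± 0.39 and 5.24 ± 0.47 in KC1, KC3 and KC4 (limma F adjusted p = 0.000433). Ctsh was lowest in KC2 (8.89 ± 0.07 against 9.97 to 11.24) and Lcn2 highest in KC3 (6.59 ± 0.23 against 4.17 to 4.78). Dram1 was highest in KC1 (8.04 ± 0.12) and at the floor on all KC2 and KC3 arrays. Scd1 was highest in KC4 (11.26 ± 0.04 against 10.10 to 10.82). Fasn was lowest in KC3 (10.61 ± 0.19 against 11.43 to 11.77), and Muc1, given above, was lowest in KC4. Scgb3a2, a club cell secretoglobin, was at 5.91 ± 0.21 in KC1 and 6.07 ± 0.54 in KC4 (limma F adjusted p = 0.0171). It was at 4.10 ± 0.15 in KC2 and 4.99 ± 0.94 in KC3, with 1 KC2 array at the floor. Its signal ran from 13.4 to 92.3.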
